A study of Homo sapiens with 8 samples.

Results

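Eicosanoids are lipid signals made from arachidonic acid, and 10 genes of their synthesis and breakdown were examined in SW1990 cells, an established human pancreatic adenocarcinoma line. These were the phospholipase genes PLA2G3 and PLA2G4A, the 5-lipoxygenase gene ALOX5 with its partner ALOX5AP, the cyclooxygenase genes PTGS1 and PTGS2, the prostaglandin E synthase genes PTGES, PTGES2 and PTGES3, and the prostaglandin dehydrogenase gene HPGD. They were chosen by name and role, and all 10 were found among the 38637 genes listed. The RNA-seq libraries number 8, with 2 in each of 4 groups. Cells with a control vector (Vector) were paired in the design with cells overexpressing the transcription factor EBF2 (EBF2-OE), and cells given vehicle (Vehicle) with cells given GSK-LSD1, a small-molecule inhibitor of the histone demethylase KDM1A. The labels give GSK-LSD1 at 2000 µM, which is above the doses the study used for its protein blots. That unit could not be checked from the files, and the labels give no treatment time. The labels name SW1990, while the study's caption for its RNA-seq heatmaps names SW1990-luc, cells labelled with luciferase. The labels name no further allele or agent for any group. Nothing states whether the libraries of a group came from separate cultures, so p-values measure only the spread between these libraries, which may be technical.

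Arachidonic acid is released from membrane phospholipids by phospholipases A2. Lipoxygenases turn it into leukotrienes and hydroxy acids, while cyclooxygenases turn it into prostaglandin H2, from which terminal synthases make prostaglandins, prostacyclin and thromboxane. In adenocarcinomas the pathway is best known for the inducible cyclooxygenase PTGS2 and for prostaglandin E2, which HPGD inactivates.

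Levels between genes are given in TPM, the count per gene length scaled to a common library total, and differences between groups as log2 fold changes with the standard error (SE) from edgeR's quasi-likelihood test on the raw counts. A gene was called at a fold above 1.5 with a Benjamini-Hochberg adjusted p under 0.05 over all genes tested. Results of these data, among them the large GSK-LSD1 response of PLA2G3, were known when the 10 genes were chosen, so their values are a description and carry no p. The libraries held 20453362 to 27054876 counts on genes. EBF2 had 28 counts in each Vector library but 5818 in EBF2-OE 2 and 90100 in EBF2-OE 3, which were 13.9-fold apart in CPM, the count relative to the normalized library size. EBF2 itself, at a log2 fold change of 10.75 with an SE of 1.55, was not called in that comparison. The epithelial marker list summed to between 4642 and 7275 TPM, carried by KRT8, KRT18 and KRT7, whereas the epithelial genes KRT19, EPCAM and CDH1 stayed at or below 1.57 TPM in every library. Of 11 leukocyte markers, 2 or 3 per group had a TPM of 1 or more and the list summed to between 2.79 and 6.96 TPM, with CD3E at 0 in all libraries. Fibroblast markers summed to between 50.8 and 66.8 TPM, and acinar markers to at most 0.084 TPM.

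The 10 genes covered a wide range of levels. PTGES3, PTGES2, PTGES and PTGS1 were the abundant ones, with 153 to 197 TPM for PTGES3, 133 to 179 TPM for PTGES2, 105 to 311 TPM for PTGES and 83.9 to 242 TPM for PTGS1 across libraries. PLA2G4A lay between 22.3 and 30.8 TPM and PTGS2 between 4.39 and 33.9 TPM. PLA2G3, ALOX5, ALOX5AP and HPGD never exceeded 2.54 TPM. Thus PTGS1 and the prostaglandin E synthase transcripts were far more abundant than those of 5-lipoxygenase and its partner, while HPGD was among the lowest. Later enzymes of the leukotriene branch were mixed in level. LTA4H, the leukotriene A4 hydrolase, lay at 56.5 to 76.6 TPM and GGT1 at 39.2 to 91.4 TPM. LTC4S, the leukotriene C4 synthase, was low at 0.416 to 7.27 TPM.

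**Figure D1:**
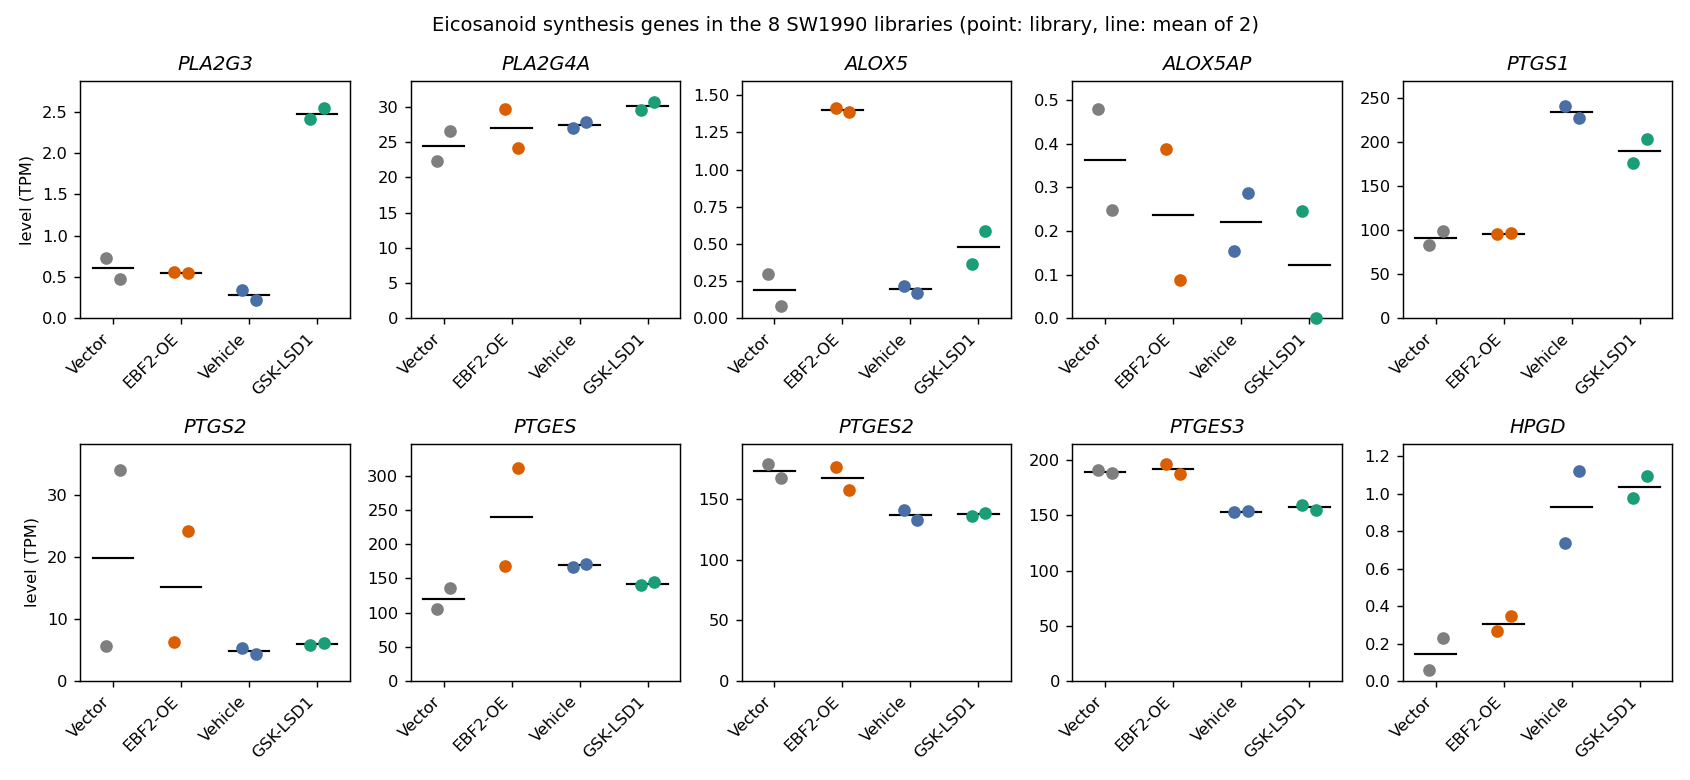
TPM (y axis, linear, a scale per panel) of each of the 10 genes by group (x axis), with a point per library and a line at the mean of 2 libraries. PLA2G3 stands high in both GSK-LSD1 libraries, ALOX5 in both EBF2-OE libraries, PTGS2 in Vector 3 and EBF2-OE 3, and PTGS1 and HPGD in the Vehicle and GSK-LSD1 libraries.

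Under GSK-LSD1, 1 of the 9 genes with enough counts for the test was called, PLA2G3, which was higher. Of all genes tested in that comparison 4.57% were called, 2.53% higher and 2.04% lower. Both GSK-LSD1 libraries lay above both Vehicle libraries for 5 of the 9 genes, where 30% of all genes tested did so, and below for 2, where 30.2% did so. In EBF2-OE cells 0 of the 8 genes tested were called, beside 0% of all genes tested, and at an unadjusted p under 0.05 with the same fold limit 2 of the 8 passed, ALOX5 and PTGES, beside 0.951% of all genes. DESeq2 also called 0 of them. In CPM scaled over these 4 libraries both EBF2-OE libraries lay above both Vector libraries for 3 of the 8, ALOX5, PTGES and PTGES3, where 12.1% of all genes did so, and below for none, where 10.8% did so. For PTGES3 this held by a narrow margin (338.9 against 336.9 CPM) on that scale only, and its groups overlapped in TPM and in CPM scaled over 8 libraries. Between the controls, both Vector libraries lay above both Vehicle libraries for 4 of the 8 genes tested, where 35.6% of all genes did so, and below for the other 4, where 35.3% did so. Because the choice of genes drew on these comparisons, nothing is read from these shares.

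PLA2G3 encodes the secreted group III phospholipase A2. Its counts were 10 and 7 in the Vehicle libraries and 66 and 67 in the GSK-LSD1 libraries. The GSK-LSD1 libraries were far above all others and close to each other, and the groups did not overlap. The fold was 8.83, a log2 fold change of 3.14 with an SE of 0.315, the seventh in size of all genes tested in either direction. It passed the low-count filter only through the GSK-LSD1 libraries and so had to differ, which makes its call a description. The log2 fold change was 2.84 to 3.49 when each library in turn was left out. In bulk RNA, more cells with the transcript and more transcript per cell cannot be told apart. The summed epithelial markers were lower in the same libraries, 5375 and 5427 TPM under GSK-LSD1 against 7162 and 7275 TPM in Vehicle. KRT7, KRT8 and KRT18 were lower, but CLDN4 was higher, at 57.2 and 67.1 TPM against 44.4 and 42.9 TPM. In each group 7 of the 8 reached a TPM of 1 in at least 1 library, KRT19 only in Vehicle and EPCAM only under GSK-LSD1. KRT19 was at 0 in GSK-LSD1 2. The part of these markers in the GSK-LSD1 results was not tested. PLA2G3 stayed a rare transcript, with 2.41 and 2.54 TPM under GSK-LSD1 against 0.346 and 0.224 TPM in Vehicle.

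EBF2 overexpression did not separate PLA2G3 from its control. The counts were 17 and 13 in Vector and 13 and 14 in EBF2-OE, the groups overlapped, and the log2 fold change was -0.09 with an SE of 0.499. Between the 2 controls, Vector lay above Vehicle in both libraries with a log2 difference of 1.05 and an SE of 0.464, and was not called. PLA2G3 passed the filter there only through the Vector libraries and so had to differ. The GSK-LSD1 response exceeded the EBF2-OE response by 3.23 on the log2 scale with an SE of 0.538, a difference that did not pass the limit among all genes. In order of TPM, PLA2G3 was highest in GSK-LSD1, then Vector, EBF2-OE and Vehicle, and Vector and EBF2-OE were not apart beyond their spread.

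PLA2G4A, the cytosolic phospholipase that prefers arachidonate-bearing phospholipids, was more abundant than PLA2G3 in every library. Among phospholipase genes outside the chosen ones, PLAAT3 at 124 to 211 TPM and PLA2G15 at 31.3 to 41.6 TPM were higher than PLA2G4A. PLA2G4A had 526 and 729 counts in Vector, 695 and 628 in EBF2-OE, 789 and 880 in Vehicle, and 818 and 819 in GSK-LSD1. The groups of each experiment differed little, with a log2 fold change of 0.16 (SE 0.179) in EBF2-OE and 0.17 (SE 0.0687) under GSK-LSD1, neither of them called. PLA2G3 made up 7.53% and 7.63% of the summed TPM of both phospholipase genes in the GSK-LSD1 libraries and 0.796% to 3.16% in the other 6 libraries. Set against each other within a library, a share that needs no scaling between libraries, PLA2G4A thus remained the main transcript of the pair even where PLA2G3 was highest.

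ALOX5, the enzyme that opens the leukotriene branch, had 9 and 3 counts in Vector and 42 and 46 in EBF2-OE. Both EBF2-OE libraries were high and nearly equal, although they differed 13.9-fold in EBF2 itself. The log2 fold change was 2.90 with an SE of 0.603, 2.27 to 3.97 when a library was left out, and ALOX5 was not called. ALOX5 passed the low-count filter only through the EBF2-OE libraries and so had to differ. The log2 ratio was 2.29 in the libraries numbered 2 alone and was larger in those numbered 3 alone. Under GSK-LSD1 the counts were 13 and 20 against 8 and 7 in Vehicle, a log2 fold change of 1.32 with an SE of 0.486 that was not called. There ALOX5 passed the filter only through the GSK-LSD1 libraries and so again had to differ. ALOX5 was highest in EBF2-OE, then in GSK-LSD1, while Vehicle and Vector were not apart beyond their spread. The gene lies on chromosome 10 of hg38 at 45374209 to 45446121, and a lncRNA on the opposite strand that overlaps it, LOC102724323, had at most 1 count in any library.

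ALOX5AP encodes the membrane protein that presents arachidonic acid to 5-lipoxygenase. It had 5 and 3 counts in Vector, 4 and 1 in EBF2-OE, 2 and 4 in Vehicle, and 3 and 0 in GSK-LSD1, too few for a test in any comparison. No difference in ALOX5AP was detectable at this depth. The highest ALOX5 level, 1.41 TPM, was therefore found in cells in which ALOX5AP had at most 0.387 TPM. In the EBF2-OE libraries the 11 leukocyte markers summed to 3.12 and 3.83 TPM, within the range of the other groups. CD3E and MS4A1 were at 0 and PTPRC at or below 0.0706 TPM. FCER1G, near the level of ALOX5, had 1.10 and 1.19 TPM, against 2.18 and 0.564 TPM in Vector. CD79A had 1.18 and 0.531 TPM and was above both Vector libraries, at 0 and 0.404 TPM. The part of these markers in the ALOX5 result was not tested.

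PTGS1, the cyclooxygenase that most tissues make at a steady level, was the main cyclooxygenase transcript. It had 6320 and 8678 counts in Vector, 7112 and 8054 in EBF2-OE, 22523 and 22969 in Vehicle, and 15581 and 17362 in GSK-LSD1. The GSK-LSD1 libraries lay below both Vehicle libraries, with a log2 fold change of -0.27 and an SE of 0.0607, a decrease under the fold limit. In EBF2-OE the log2 fold change was 0.10 with an SE of 0.137 and the groups overlapped. The larger contrast was between the controls. Vector lay 2.59-fold below Vehicle, a log2 difference of -1.37 with an SE of 0.116, and was called lower, beside 16% of all genes called in that comparison, 5.79% higher and 10.2% lower. Both PTGS1 and HPGD, the 2 of 8 genes called there, lost the call without Vehicle 1, when 12 genes in all were called in place of 2558, and HPGD also without Vehicle 2. The epithelial markers summed to between 4642 and 4999 TPM in Vector and between 7162 and 7275 TPM in Vehicle. Of the 8, 5 in Vector and 7 in Vehicle reached a TPM of 1 in at least 1 library. KRT19 was at 0 in Vector 3. The part of these markers in the result was not tested. The labels give no culture or sequencing date, and the control vector cannot be told apart from other differences between the 2 experiments.

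PTGS2, the inducible cyclooxygenase and an immediate early gene, behaved unlike the others. Its counts were 199 in Vector 2 but 1379 in Vector 3 and, likewise, 217 in EBF2-OE 2 but 935 in EBF2-OE 3, with 232 and 206 in Vehicle, and 236 and 241 in GSK-LSD1. Vector 3 and EBF2-OE 3 were high, and the other 6 libraries lay between 199 and 241 counts. In CPM the Vector libraries differed 6.28-fold and the EBF2-OE libraries 3.88-fold, and only 39 and 216 of 16558 genes were at least as far apart within those groups. The groups overlapped, and the log2 fold change in EBF2-OE was -0.36 with an SE of 0.895. It ranged from -1.66 to 1.48 when a library was left out, so its direction depended on which libraries were kept. The log2 ratio was 0.20 in the libraries numbered 2. Under GSK-LSD1 the log2 fold change was 0.32 with an SE of 0.132, not called. Vector lay above Vehicle by 2.03 with an SE of 0.791, which was not called and was 0.18 without Vector 3 and 2.81 without Vector 2.

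Another immediate early gene, EGR1, was looked at after its values had been seen. Vector 2 held 169 EGR1 counts and Vector 3 held 6348, EBF2-OE 2 held 74 and EBF2-OE 3 held 4038, against 61 to 97 in the Vehicle and GSK-LSD1 libraries. EGR1 was thus high in the same libraries as PTGS2, whether or not they overexpressed EBF2. The part that this difference between libraries has in the PTGS2 values was not tested.

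The ratio of PTGS1 to PTGS2 within a library was 45.1 and 51.8 in Vehicle and 30.7 and 33.5 in GSK-LSD1, calculated from TPM. It was 14.8 in Vector 2, 15.2 in EBF2-OE 2, 2.93 in Vector 3 and 4.01 in EBF2-OE 3. The ratio therefore separated the GSK-LSD1 libraries from Vehicle, with PTGS1 lower and PTGS2 higher in the treated cells, whereas in the other experiment libraries of the same number were alike and the numbers differed. PTGS1 exceeded PTGS2 in all 8 libraries.

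**Figure D2:**
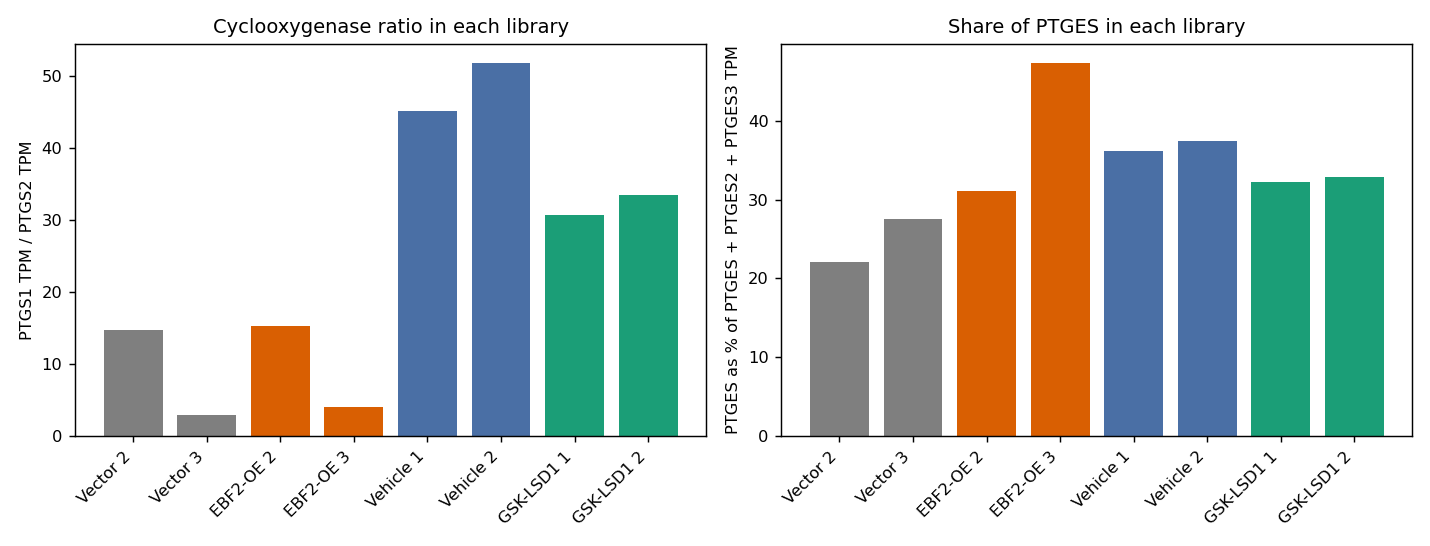
Left, bars give the TPM of PTGS1 divided by that of PTGS2 in each library. Right, bars give PTGES as a percentage of the summed TPM of PTGES, PTGES2 and PTGES3, highest at 47.4% in EBF2-OE 3 and lowest at 22.1% in Vector 2. Colours mark the 4 groups, with no error bars because each bar is 1 library.

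The starts of the cyclooxygenase genes are shown because PTGS2 differed widely between libraries of a group and PTGS1 between the controls. The sequences run from 250 bases before to 50 bases after an annotated RefSeq start in GRCh38.p14, 5′ to 3′ on the strand of the gene. The window of PTGS2 is chr1:186680374-186680673 on the minus strand, with the letters TATAAA in capitals, which begin 32 bases before the start. The window of PTGS1, the first of 2 annotated, is chr9:122370283-122370582 on the plus strand, with 2 matches in capitals: TTTATA, which is TATAAA on the other strand, 208 bases before the start, and CCCATGGG, a match to the paired EBF half-site CCCNNGGG, 45 bases before it.
PTGS2: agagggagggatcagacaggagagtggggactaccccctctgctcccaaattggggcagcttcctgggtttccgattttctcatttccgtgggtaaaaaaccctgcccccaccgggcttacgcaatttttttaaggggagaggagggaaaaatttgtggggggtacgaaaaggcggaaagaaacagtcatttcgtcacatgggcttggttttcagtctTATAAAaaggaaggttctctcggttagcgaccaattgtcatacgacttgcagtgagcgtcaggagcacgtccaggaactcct
PTGS1: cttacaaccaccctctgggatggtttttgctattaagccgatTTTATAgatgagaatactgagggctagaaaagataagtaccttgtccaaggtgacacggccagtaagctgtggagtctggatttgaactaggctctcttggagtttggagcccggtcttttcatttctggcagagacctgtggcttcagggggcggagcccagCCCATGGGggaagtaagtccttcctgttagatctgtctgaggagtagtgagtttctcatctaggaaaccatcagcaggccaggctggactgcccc
Both strands were searched. TATAAA was found in 11.5% of 35116 windows of the same length and CCCNNGGG in 19.1%, and each match is a description of the letters, not a site. The second PTGS1 window held none of the 4 motifs searched.

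PTGES, the inducible microsomal prostaglandin E synthase that works with PTGS2, had 1430 and 2137 counts in Vector and 2274 and 4662 in EBF2-OE. EBF2-OE 3, at 311 TPM, was the highest of all libraries, while EBF2-OE 2, at 169 TPM, lay nearer to Vector 3, at 135 TPM. The groups did not overlap. The log2 fold change was 1.02 with an SE of 0.308, not called, and 0.51 when EBF2-OE 3 was left out against 1.40 without EBF2-OE 2. The epithelial markers were also higher in EBF2-OE, summing to 5509 and 6279 TPM against 4642 and 4999 TPM in Vector. In each group 5 of the 8 were at a TPM of 1 or more, and KRT19 was at 0 in Vector 3 and EBF2-OE 3. The part of these markers in the EBF2-OE results was not tested. Under GSK-LSD1 PTGES had 2244 and 2214 counts against 2802 and 3129 in Vehicle. Both treated libraries were lower, with a log2 fold change of -0.21 and an SE of 0.0506, a decrease under the fold limit. The PTGES responses to GSK-LSD1 and EBF2 overexpression pointed in opposite directions and differed by -1.23 on the log2 scale with an SE of 0.354, which did not pass the limit among all genes in edgeR but did by DESeq2. In order of TPM, PTGES was highest in EBF2-OE, then Vehicle, GSK-LSD1 and Vector, and EBF2-OE and Vehicle were not apart beyond their spread.

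The window at the start of PTGES, chr9:129752993-129753292 on the minus strand, is shown because PTGES and EGR1 were both higher in the library numbered 3 than in that numbered 2, in Vector and in EBF2-OE. The capitals mark GCGTGGGCG, the letters of the EGR1 motif, 82 bases before the start.
PTGES: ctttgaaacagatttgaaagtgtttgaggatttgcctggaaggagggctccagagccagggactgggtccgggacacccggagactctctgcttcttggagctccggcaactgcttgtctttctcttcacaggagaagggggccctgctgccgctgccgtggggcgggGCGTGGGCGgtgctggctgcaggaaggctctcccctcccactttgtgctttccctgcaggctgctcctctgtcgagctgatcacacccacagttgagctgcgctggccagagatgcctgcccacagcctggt
These letters occur in 0.795% of the 35116 windows, and the match is a description of the letters, not a site. They were also present in 1 of 3 windows of PTGES2, 147 bases before its start, and not in the windows shown for PTGS1 and PTGS2. The log2 ratio of number 3 over number 2 was -0.025 in Vector and -0.16 in EBF2-OE for PTGES2. It was 0.44 and 0.88 for PTGES, and 5.09 and 5.62 for EGR1. EBF2 was also 13.9-fold higher in EBF2-OE 3 than in EBF2-OE 2, in CPM. Any part of EGR1 or of EBF2 in this difference of PTGES between libraries was not tested. The exact letters TGACGTCA, the full cAMP response element, were found in 1.85% of all windows. They were in none of the 12 windows of the 8 genes that had one. Shorter or variant forms of the element were not searched, so such forms may be present. RefSeq windows for PLA2G3 and ALOX5 were not used here.

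PTGES2 and PTGES3 were close to flat. PTGES2, a membrane-associated synthase, had 3368 and 3654 counts in Vector, 3295 and 3270 in EBF2-OE, 3284 and 3348 in Vehicle, and 3005 and 2953 in GSK-LSD1. PTGES3, the cytosolic synthase also known as the HSP90 co-chaperone p23, had 7016 and 8022, 7160 and 7599, 6938 and 7567, and 6882 and 6422 counts in the same order. Their log2 fold changes were -0.02 (SE 0.122) and 0.05 (SE 0.108) in EBF2-OE, and 0.04 (SE 0.0543) and 0.07 (SE 0.0497) under GSK-LSD1. None of these was called. Between the controls PTGES2 and PTGES3 lay above Vehicle in Vector by 0.32 (SE 0.0786) and 0.29 (SE 0.0650), under the fold limit, while the log2 difference of PTGES was -0.51 (SE 0.145), not called. PTGES made up 22.1% and 27.6% of the summed TPM of the 3 synthases in Vector, 31.1% and 47.4% in EBF2-OE, 36.2% and 37.5% in Vehicle, and 32.2% and 32.9% in GSK-LSD1. The other synthases stayed within 133 to 197 TPM in all libraries.

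HPGD, the dehydrogenase that begins the inactivation of prostaglandins, had 2 and 9 counts in Vector, 9 and 13 in EBF2-OE, 31 and 51 in Vehicle, and 39 and 42 in GSK-LSD1. The Vehicle and GSK-LSD1 libraries were high and overlapped, with a log2 fold change of 0.18 and an SE of 0.270. Too few counts were present for a test in EBF2-OE against Vector, where the levels in CPM were 0.447 and 0.581 against 0.0946 and 0.385. Vector lay 6.22-fold below Vehicle, a log2 difference of -2.64 with an SE of 0.580, and was called lower. The log2 difference ranged from -3.96 without Vector 3 to -2.003 without Vector 2. HPGD passed the filter there only through the Vehicle libraries and so had to differ, which makes its call a description. HPGD lies on chromosome 4 of hg38 at 174490175 to 174522893, and LOC105377548, a lncRNA on the opposite strand that overlaps its 5′ end by 50 bases, had at most 3 counts.

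**Figure D3:**
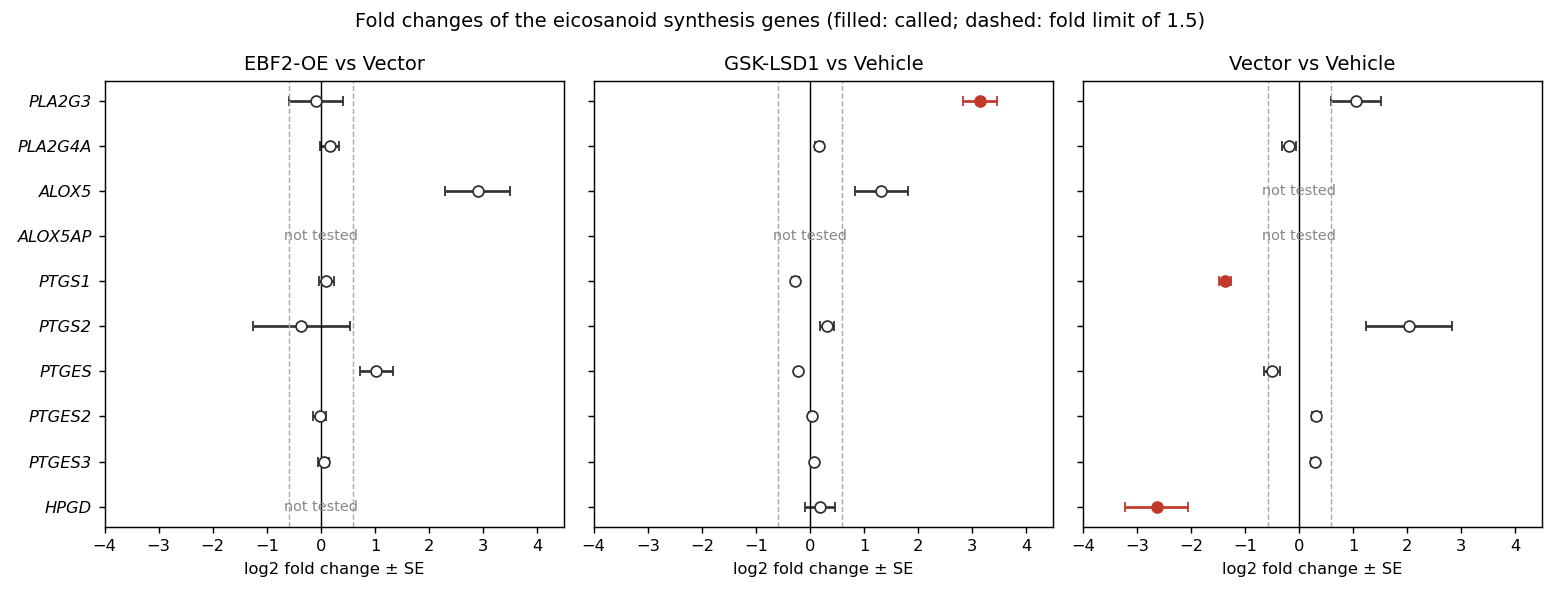
Points give the log2 fold change (x axis) of each gene (y axis) in 3 comparisons, and bars the SE from edgeR. Filled red points are called, PLA2G3 under GSK-LSD1 and PTGS1 and HPGD between the controls, dashed lines mark the fold limit of 1.5, and genes with too few counts are written as not tested.

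The pattern over the 8 libraries was compared with that of all 16558 genes tested over them, by Pearson's correlation of log2 CPM, which is given with no test since the libraries of a group share their treatment. The closest to PLA2G3 were SLC29A2, NAXE and ACSL1, with coefficients of 0.982, 0.972 and 0.966. ACSL1, a long-chain acyl-CoA synthetase, had 195 and 203 counts in Vehicle cells against 612 and 546 in GSK-LSD1 cells. DCAF6, PC and EIF3L were closest to PTGS1, each at 0.99, and FBXO36, HADH and TMEM230 to HPGD, at 0.98 to 0.99.

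Beyond the 10 genes, 79 other genes of the pathway were listed in 7 roles, from arachidonate supply to receptors. Under GSK-LSD1, 48 of them had enough counts and 4 were called, 3 higher and 1 lower, beside 4.57% of all genes. The median log2 fold change of the 48 was 0.10, against -0.01 over all genes tested. The p-values below are for genes outside the 10, in lists also written with earlier results known. Of 6 terminal synthase genes tested, 2 were called, both higher, and 5 had a log2 fold change above 0. PTGDS, the lipocalin-type prostaglandin D synthase, had 765 and 877 counts in Vehicle cells against 1894 and 1951 in GSK-LSD1 cells. It rose by 1.43 on the log2 scale with an SE of 0.0636 (edgeR, Benjamini-Hochberg adjusted p = 5.35e-07). AKR1C3, an aldo-keto reductase that makes prostaglandin F, had 1389 and 1327 counts in Vehicle cells against 2135 and 2324 in GSK-LSD1 cells. It rose by 0.91 with an SE of 0.0784 (edgeR, Benjamini-Hochberg adjusted p = 4.23e-05), though close relatives in the AKR1C family could share its reads. The transcript of prostaglandin D synthesis thus rose in the same cells in which PTGES was lower, by less than the fold limit.

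The other called genes under GSK-LSD1 belong to the leukotriene branch. DPEP1, a dipeptidase that converts leukotriene D4 to E4, had 8 and 15 counts in Vehicle cells against 33 and 33 in GSK-LSD1 cells. It passed the filter only through the treated libraries and so had to differ, and its log2 fold change of 1.71 with an SE of 0.368, 1.40 to 2.15 when a library was left out, is given with no p. LTB4R2, a receptor for leukotriene B4, had 261 and 144 counts in Vehicle cells against 79 and 85 in GSK-LSD1 cells. It fell by 1.12 with an SE of 0.279 (edgeR, Benjamini-Hochberg adjusted p = 0.0186). LTB4R2 overlaps LTB4R on the same strand and CIDEB on the opposite strand, so reads may be split between them, and without Vehicle 1 its log2 fold change was -0.54. The phospholipases (7 tested), arachidonate supply genes (10), inactivation genes (6) and transporters (3) had no called gene. All 4 calls were lost when 1 fit over all 8 libraries set the spread, with edgeR's adjusted p of 0.0550 for PTGDS, 0.241 for AKR1C3 and 0.185 for LTB4R2, each the highest over the alternatives run for that gene. When a library was left out, the log2 fold change ranged from 1.40 to 1.46 in PTGDS, 0.80 to 1.02 in AKR1C3 and -1.55 to -0.54 in LTB4R2. DPEP1 and LTB4R2 also lost the call when either GSK-LSD1 library was left out, and LTB4R2 without Vehicle 1.

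In EBF2-OE cells 45 of the 79 pathway genes were tested and 0 were called by edgeR or DESeq2, beside 0% of all genes by edgeR. At an unadjusted p under 0.05 with the same fold limit 1 passed, ALOX12B, a lipoxygenase of the skin barrier, beside 0.951% of all genes. ALOX12B had 62 and 67 counts in Vector and 117 and 162 in EBF2-OE, a log2 fold change of 1.18 with an SE of 0.269 (edgeR, Benjamini-Hochberg adjusted p = 1.00). The next in size were LTC4S, the leukotriene C4 synthase, at 0.72 with an SE of 0.811 (0.0068 to 1.90 when a library was left out), and TBXAS1, the thromboxane synthase, at -0.55 with an SE of 0.514. The median of the 45 genes was 0.07, against 0.003 over all genes tested.

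Between the controls, 8 of 46 pathway genes were called, all lower in Vector, beside 10.2% of all genes called lower and 5.79% higher. The lists were written with earlier results known, so nothing particular to the pathway is read from this share. The 8 were LTC4S, ALOX12 and GGT1 of the leukotriene and lipoxygenase list, PTGDS and AKR1C3 of the synthases, EPHX1 and PTGR2 of inactivation, and the thromboxane receptor TBXA2R. Their log2 differences ran from -2.57 in LTC4S to -0.62 in PTGR2. LTC4S passed the filter only through the Vehicle libraries and so had to differ, and its log2 difference ranged from -3.73 without Vector 2 to -1.88 without Vector 3. The median of the 46 genes was -0.29, against 0.002 over all genes tested. DPEP2 at -2.42 and the prostaglandin E2 receptor PTGER4 at 1.17 were among the 3 largest differences without being called. PTGER4 had 168 counts in Vector 2 but 521 in Vector 3, and its log2 difference was 0.26 without Vector 3. That of DPEP2 ranged from -3.73 without Vector 2 to -1.69 without Vector 3, and DPEP2 passed the filter only through the Vehicle libraries and so had to differ. Without Vehicle 1 or without Vehicle 2, 0 of the 46 were called.

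**Figure D4:**
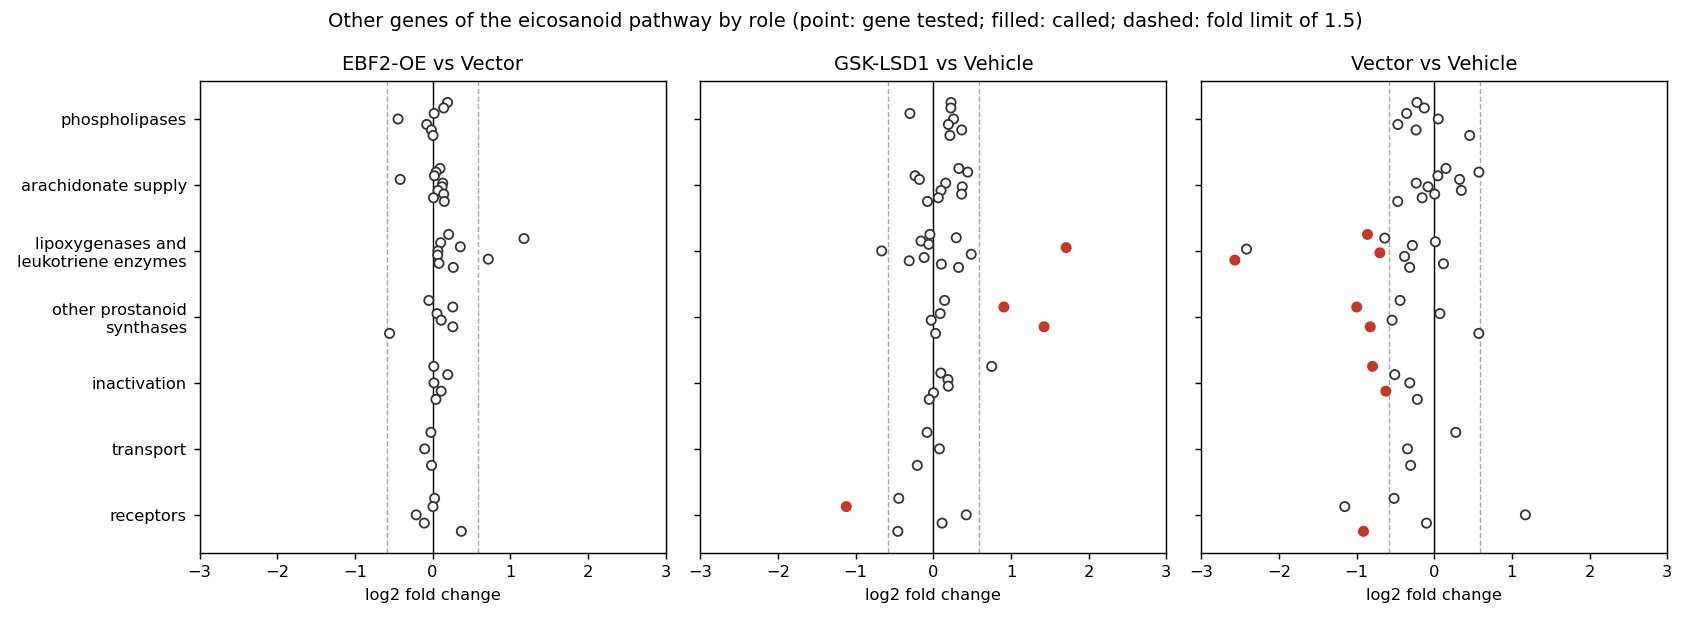
Each point is a pathway gene outside the 10, placed by log2 fold change (x axis) and role (y axis) in 3 comparisons, filled red where called, with dashed lines at the fold limit of 1.5. Called genes number 0 in EBF2-OE, 4 under GSK-LSD1 and 8 between the controls, the last all on the lower side.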

How the data were processed

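RNA was analysed from 8 libraries of SW1990 cells. The authors aligned poly(A)-selected paired-end reads to hg38 with HISAT2 and counted them per gene model with HTSeq. Versions and the strand setting are not given in the sources used here. The authors deposited raw counts per gene, gene lengths and TPM in 1 table. The deposited TPM was checked to be the count per length rescaled to a common total, and was used only to compare levels.

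The test on counts was edgeR's (version 4.0.16, R 4.3.3; TMM, filterByExpr with a minimum count of 10, quasi-likelihood, two-sided, Benjamini-Hochberg adjustment over all genes), on the 4 libraries of each comparison, and on all 8 for the difference of responses. The SE was taken from the test statistic. On simulated data with 200 changed genes, 4-fold changes were recovered in 100% of cases under GSK-LSD1 and 93% in EBF2-OE, and 2-fold changes in 92% and 44%, with 12 and 25 unchanged genes called. These shares hold for the simulated spread only, since the real EBF2-OE comparison did not call EBF2 itself, whose libraries lay far apart. Alternatives were DESeq2 1.42.0, its size factors in edgeR, limma 3.58.1 on log2 CPM with a pseudocount of 1, other filters and limits, 1 fit over 8 libraries, the replicate number as a block and leaving out each library. Values within 1 library number were added after seeing the data.

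The members and lists were chosen with earlier results of these data known. Of the pathway genes, those called and the 3 with the largest change per comparison are named. Of 82 pathway symbols, 79 were listed. EGR1 was chosen after its values were seen. Promoter windows came from RefSeq (GRCh38.p14) for 8 of the 10 genes. Scripts used Python 3.11.15, pandas 2.3.3, numpy 2.4.6 and matplotlib 3.10.9.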

Additional observations from a re-analysis of the deposited data

Results flagged for a closer look

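PTGES moved in opposite directions in the 2 experiments. Both EBF2-OE libraries lay above both Vector libraries, as for 12.1% of all genes tested. Both GSK-LSD1 libraries lay below both Vehicle libraries, as for 30.2%. Neither response was called. The responses differed by -1.23 on the log2 scale (SE 0.354, GSK-LSD1 response minus EBF2-OE response). The difference was tested in edgeR over 8 libraries and did not pass the limit among all genes. It did pass by DESeq2, without a low-count filter and with the replicate block, so the outcome depended on the setting. The difference ranged from -1.60 to -0.72 when a library was left out. PTGES was chosen with earlier results known, so these outcomes are a description. No group had enough libraries for a test of single outlying libraries.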

How the results depend on the processing

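Of the counts, medians and orders recomputed under the alternatives, 118 stayed within their limits and 43 moved. Of single-gene values, 579 kept direction and side of the threshold, 27 gained and 32 lost the call, and 20 turned direction.

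Under GSK-LSD1 the 734 calls became 3007 without a fold limit, 467 by DESeq2, 100 in 1 fit over 8 libraries and 439 to 1007 when a library was left out. Of the 10 genes, 2 were called by unadjusted p, 3 without a fold limit and 0 with at least 10 counts in every library, where PLA2G3 was not tested. Pathway calls numbered 16 without a fold limit, 0 in the 8-library fit and 2 to 4 when a library was left out, and DESeq2 lost DPEP1. With limma on log2(CPM + 1) PLA2G3 stayed called at 1.56, a scale that shrinks changes of low genes.

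In EBF2-OE the 0 calls became 148 by unadjusted p, 7 by DESeq2, 74 without a filter, 2 in the 8-library fit and 1 to 3 when a library was left out. Of the 10 genes 2 were called by unadjusted p and the same number without a filter, ALOX5 and PTGES both times, and 1 pathway gene by unadjusted p. The pathway median ranged from -0.0039 to 0.16 when a library was left out.

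Between the controls the 2558 calls became 4294 without a fold limit and 12 to 4259 when a library was left out. Of the 10 genes 4 were called without a fold limit, 1 with at least 10 counts in every library and 0 to 3 when a library was left out. Pathway calls numbered 15 without a fold limit and 0 to 12 when a library was left out. The pathway median was -0.233 by DESeq2, -0.236 without a filter and -0.348 to -0.252 when a library was left out. The causes were not tested.

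The responses of 1 of the 10 genes differed by DESeq2, of 2 without a filter, of 1 with the replicate block and of 0 to 1 when a library was left out. PTGES was among them each time, and PLA2G3 was the other without a filter.

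Nothing states what the replicate numbers stand for, and the main test did not use them. The correlation of deviations was 0.312 between EBF2-OE and Vector and -0.00995 between GSK-LSD1 and Vehicle, over 2 pairs each. In EBF2-OE the number as a block lowered the SE from 0.895 to 0.181 in PTGS2 and from 0.308 to 0.154 in PTGES. With the number as a block 5 genes were called in EBF2-OE and 763 under GSK-LSD1.

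Leaving out a library turned the direction of small changes. In EBF2-OE the log2 fold change ranged from -0.34 to 0.21 in PLA2G3, -0.036 to 0.253 in PTGS1, -0.103 to 0.052 in PTGES2 and -1.66 to 1.48 in PTGS2. Under GSK-LSD1 it ranged from -0.063 to 0.50 in HPGD and -0.020 to 0.101 in PTGES2. The difference of responses ranged from -0.16 to 0.17 in PLA2G4A, -1.17 to 1.98 in PTGS2, -0.015 to 0.155 in PTGES2 and -0.0082 to 0.071 in PTGES3. In the libraries numbered 2 alone the EBF2-OE log2 ratio was 0.20 in PTGS2 and 0.039 in PTGES2. In those numbered 3 alone it was 0.17 in PLA2G3, -0.15 in PLA2G4A, -0.046 in PTGS1 and -0.016 in PTGES3.

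With 2 libraries a group and a biological coefficient of variation of 19.0% in EBF2-OE against 5.87% under GSK-LSD1, changes in EBF2-OE can go undetected. This holds for large ones too, since EBF2 itself was not called at a log2 fold change of 10.75. ALOX5AP was too rare for any test, and PLA2G3, ALOX5 and HPGD rest on fewer than 70 counts a library.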
